A study of Homo sapiens with 9 samples.

Results

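The peptidylarginine deiminases are the enzymes encoded by PADI1, PADI2, PADI3 and PADI4. These 4 genes were taken by symbol from the 58884 genes of an RNA-seq count table, and they were chosen by the measured rise of PADI4 in one of the cell populations, which is therefore given here as a description and not as a test. The table covers the human breast cancer cell line MDA-MB-231, a claudin-low line grown from a pleural effusion, as the unselected parental population (Par) and as 2 sub-populations of it that were selected in vivo in mice, LM2 from lung metastases and BrM2 from brain metastases. Par, LM2 and BrM2 cells were untreated, carried no genotype or agent that the labels name, and were grown alone as monolayers in DMEM with serum for 3 days. The 9 libraries are 3 cultures of each population, taken at separate passages. Each metastatic sub-population is represented by a single derived population, so the replicates measure the spread between cultures of that population and not between independent selections.

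Peptidylarginine deiminases convert arginine residues within proteins to citrulline, which removes the positive charge of the side chain, and they need calcium to do so. PADI1 and PADI3 are best known from epidermis and hair follicles, where they modify keratins, filaggrin, trichohyalin and S100A3. PADI2 is the most widely expressed of the family and modifies myelin basic protein and vimentin, and PADI4 carries a nuclear localization signal, modifies histones and is best known from neutrophils. PADI6 belongs to the oocyte and early embryo.

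The 5 genes lie side by side on chromosome 1 in the order PADI2, PADI1, PADI3, PADI4 and PADI6, within 335 kb (GRCh38.p14, chr1:17066761-17401699). PADI2 is on the minus strand at chr1:17066761-17119451 and PADI1 starts 85.7 kb away on the plus strand at chr1:17205128-17246007. PADI3 follows on the same strand at chr1:17249098-17284233, only 3.09 kb after the end of PADI1. PADI4 lies another 24.0 kb on at chr1:17308197-17364004, and PADI6 at chr1:17372196-17401699. No exon of the 4 genes overlapped an exon of another counted gene. Between 0% and 1.44% of the 50-base windows of each gene's exons were also found in another gene.

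The 250 bases before the RefSeq start of 3 of the 4 genes are printed because the genes of this cluster went in opposite directions and because PADI2 was nearly silent. Capitals mark matches, on either strand, to 4 motifs, and each sequence is read 5′ to 3′ on the strand of its gene. The TATA box was searched as TATAAA and the GC box as GGGCGG. The CCAAT box was searched by these 5 letters and the AP-1 site as TGANTCA.
PADI4 (plus strand, chr1:17307947-17308196): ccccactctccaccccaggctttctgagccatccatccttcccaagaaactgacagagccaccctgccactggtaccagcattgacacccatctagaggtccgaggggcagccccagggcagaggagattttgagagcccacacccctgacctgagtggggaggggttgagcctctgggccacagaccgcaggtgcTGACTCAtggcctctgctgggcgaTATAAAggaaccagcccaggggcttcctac
PADI1 (plus strand, chr1:17204878-17205127): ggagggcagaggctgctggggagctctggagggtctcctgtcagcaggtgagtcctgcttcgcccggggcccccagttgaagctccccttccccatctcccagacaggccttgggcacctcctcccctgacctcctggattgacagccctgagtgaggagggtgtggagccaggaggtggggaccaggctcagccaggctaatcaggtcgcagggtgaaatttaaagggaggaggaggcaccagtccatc
PADI2 (minus strand, chr1:17119452-17119701): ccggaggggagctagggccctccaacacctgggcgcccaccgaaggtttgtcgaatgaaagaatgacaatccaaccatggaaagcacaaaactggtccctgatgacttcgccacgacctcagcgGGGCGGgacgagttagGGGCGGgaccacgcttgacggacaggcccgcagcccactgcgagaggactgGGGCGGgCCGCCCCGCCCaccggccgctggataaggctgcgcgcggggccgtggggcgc
The PADI4 window held a TATA box beginning 30 bases before the start and an AP-1 site beginning 54 bases before it. Among 35116 RefSeq promoters of the same window length, 10.7% held this TATA box and 6.57% held this AP-1 site. The PADI1 window held none of the 4 motifs. The PADI2 window held 5 GC boxes, the last pair of which overlapped, and 42.6% of all promoters held at least 1. PADI4 and PADI1 had 3 CG dinucleotides each, PADI2 had 24, and the median promoter had 11. These letters describe the windows and do not show that a factor was bound.

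Library totals ran from 14371858 to 24511786 counts, and expression is given as CPM, the reads of a gene scaled to a common library size with edgeR's TMM factors. Differences between sub-populations were tested with edgeR's quasi-likelihood test over the 13001 genes that passed a filter on low counts, with Benjamini-Hochberg adjustment and a threshold of 0.05. PADI1, PADI3 and PADI4 passed this filter and PADI2 did not. PADI3 and PADI4 passed it through the LM2 libraries alone. Of 9 genes listed as markers of the line, VIM, CD44, KRT8 and KRT18 were abundant, with at most 16 counts of ESR1 and 4 of PGR in any library. ERBB2 gave 1420 to 2722 counts per library, EPCAM 55 to 202 and CDH1 3 to 37. In bulk RNA, fewer expressing cells and less RNA per cell cannot be told apart.

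PADI4 was almost absent from Par cells, was abundant for this family in LM2 cells and was low but detected in BrM2 cells. The Par libraries held 1, 1 and 0 reads, or 0.053, 0.048 and 0 CPM. The LM2 libraries held 270, 244 and 208 reads, or 13.4, 9.96 and 7.97 CPM, and their mean was 10.4 ± 2.75 CPM (SD, n = 3). All LM2 libraries lay far above all Par libraries, and 25.1% of the tested genes did not overlap in this comparison in either direction. Pooled over libraries, PADI4 in LM2 was 332 times its Par level, with an exact 95% interval of 91.7 to 2750 that is wide because only 2 Par reads were seen. This interval and the others on counts cover counting error only. For PADI4 in LM2 the separation and the interval describe the value that chose the genes and are not a test.

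In BrM2 cells PADI4 gave 9, 5 and 6 reads, or 0.664, 0.221 and 0.288 CPM. Each BrM2 library was above each Par library, a separation shared by 31.3% of the tested genes in this comparison. The pooled ratio to Par was 11.4, with an interval of 2.77 to 101, and the fitted log2 difference was 3.34 ± 0.78 (SE, edgeR adjusted p = 0.0231). PADI4 entered that fit only through its LM2 level, and with no filter on low counts the difference was 3.34 ± 0.79 (SE, edgeR adjusted p = 0.00451). The no-filter fit covered 34056 genes, of which 2165 passed, and its smaller adjusted p is not read as stronger evidence. Both fits use the Par libraries that also entered the choice of the genes, so their p-values for PADI4 are a description. In the same comparison 13.2% of the tested genes passed the threshold. The call rested on few reads. It was lost without BrM2 replicate 3 (edgeR adjusted p = 0.0509), without Par replicate 1 (0.0529), without Par replicate 2 (0.0651) or without Par replicate 3 (0.0756), when the LM2 libraries were left out of the fit (0.0569), and without the libraries of replicate 2 (0.204) or of replicate 3 (0.207). Without replicate 2 or replicate 3 all genes called in this comparison fell from 1721 to 158 and 273. The cause of the losses was not tested. The BrM2 level was 0.0343 of the LM2 level (0.0209 to 0.0534), and the fitted log2 difference of -4.81 ± 0.48 (SE) is given without a test because it uses the LM2 libraries by which the genes were chosen.

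**Figure D1:**
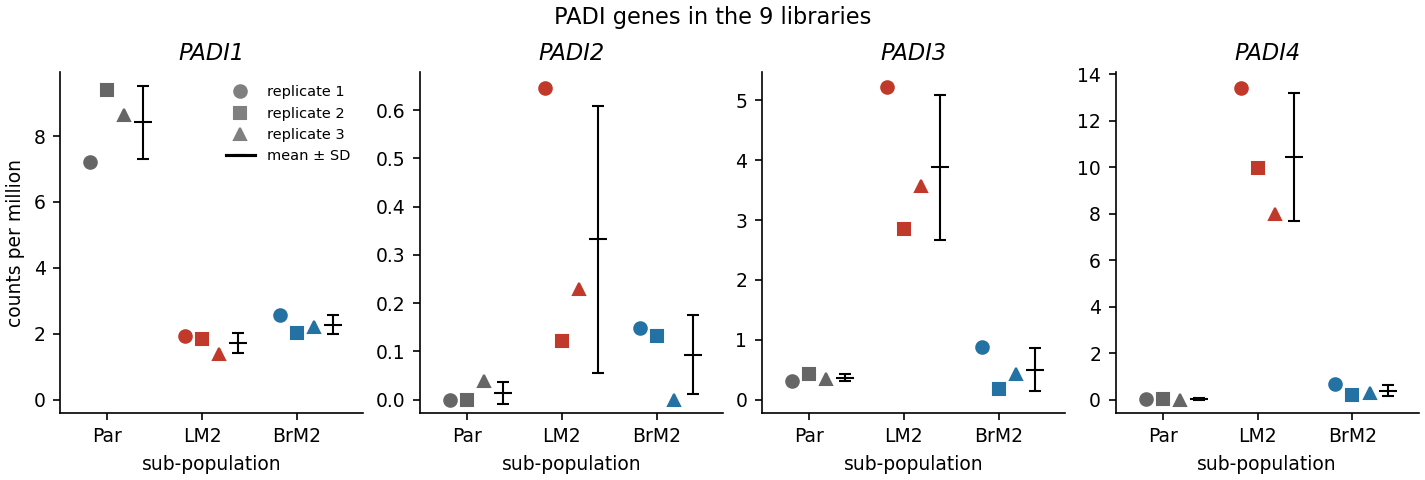
CPM of each PADI gene (linear axis, its own scale in each panel) in the 3 libraries of Par, LM2 and BrM2, with the symbol giving the replicate number and the bar the mean ± SD. PADI1 is highest in the 3 Par libraries, while PADI3 and PADI4 are highest in the 3 LM2 libraries, and PADI2 stays under 0.7 CPM in every library.

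PADI3, which in skin modifies filaggrin, trichohyalin and S100A3, rose in LM2 cells as well and not detectably in BrM2 cells. Its counts were 6, 9 and 9 in the Par libraries (0.315, 0.436 and 0.354 CPM) and 105, 70 and 93 in the LM2 libraries (5.21, 2.86 and 3.56 CPM). The LM2 libraries did not overlap the Par libraries, which held for 25.1% of the tested genes. The log2 difference between LM2 and Par was 3.37 ± 0.50 (SE, edgeR adjusted p = 0.00368), in a comparison where 8.65% of the tested genes passed the threshold. Because PADI3 entered the test only through its LM2 level, the fit was repeated with no filter, and the difference was then 3.39 ± 0.48 (SE, edgeR adjusted p = 6.27e-06). That fit called 1498 of 34056 genes. Its estimate and SE were nearly the same, so the smaller adjusted p is not read as stronger evidence.

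In BrM2 cells PADI3 gave 12, 4 and 9 reads (0.886, 0.177 and 0.431 CPM), a range that encloses the Par libraries. The log2 difference from Par was 0.34 ± 0.56 (SE, edgeR adjusted p = 0.803) and turned to -0.29 without BrM2 replicate 1. The pooled count ratio of 1.19 had an interval of 0.652 to 2.17. The difference between BrM2 and LM2 was itself tested and was -3.03 ± 0.50 on the log2 scale (SE, edgeR adjusted p = 0.00638), where 8.08% of the tested genes passed the threshold. With no filter it was -3.05 ± 0.48 (SE, edgeR adjusted p = 3.37e-05), in a fit that called 1446 of 34056 genes. All BrM2 libraries lay under all LM2 libraries, as for 23.1% of the tested genes in either direction. The PADI3 calls were kept without each single library, but were lost without the libraries of replicate 2 or of replicate 3 (edgeR adjusted p of 0.0777 and 0.156 for LM2 against Par, and of 0.153 and 0.231 for BrM2 against LM2). All genes called then fell from 1125 to 70 and 136 for LM2 against Par, and from 1051 to 53 and 113 for BrM2 against LM2.

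PADI1, the epidermal enzyme that modifies keratins and filaggrin, went the other way and fell in both metastatic sub-populations. The Par libraries held 137, 194 and 220 reads, or 7.20, 9.39 and 8.65 CPM. The LM2 libraries held 39, 45 and 36 reads (1.94, 1.84 and 1.38 CPM) and the BrM2 libraries 35, 46 and 46 reads (2.58, 2.03 and 2.20 CPM). Every LM2 and BrM2 library was under every Par library, where 25.1% of the tested genes did not overlap between LM2 and Par and 31.3% between BrM2 and Par. The log2 difference from Par was -2.29 ± 0.24 in LM2 (SE, edgeR adjusted p = 0.000637) and -1.89 ± 0.24 in BrM2 (SE, edgeR adjusted p = 0.0011), which corresponds to pooled levels of 0.201 and 0.263 of Par. The threshold was passed by 8.65% and 13.2% of the tested genes in these comparisons. Both comparisons use the same Par libraries.

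BrM2 libraries were slightly above LM2 libraries for PADI1 without overlap, but the log2 difference of 0.40 ± 0.24 did not pass the test (SE, edgeR adjusted p = 0.412). The pooled count ratio of BrM2 to LM2 was 1.31, with a counting interval of 1.01 to 1.70. The calls against Par were kept without each single library and were lost without the libraries of replicate 2 (edgeR adjusted p of 0.103 in LM2 and 0.137 in BrM2) or of replicate 3 (0.0887 and 0.0878). All genes called then fell from 1125 to 70 and 136 in LM2, and from 1721 to 158 and 273 in BrM2.

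PADI2, the family member known from brain and mammary gland, was at or near the limit of detection in all populations. Its counts were 0, 0 and 1 in Par, 13, 3 and 6 in LM2 and 2, 3 and 0 in BrM2. The Par and BrM2 libraries were all at or under 3 reads, so no fold between them is given. The pooled ratio of LM2 to Par was 20.3 with an interval of 3.27 to 836, and LM2 replicate 1 alone held 13 of the 22 LM2 reads. With no filter on low counts the log2 difference between LM2 and Par was 3.996 ± 1.168 (SE, edgeR adjusted p = 0.0402), a value that depends on how the fit treats zeros, and the comparisons of BrM2 with Par and with LM2 did not pass the test (edgeR adjusted p = 0.546 and 0.419). PADI6 had no read in any of the 9 libraries, which allows up to 0.115 to 0.221 CPM according to the depth of the library.

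**Figure D2:**
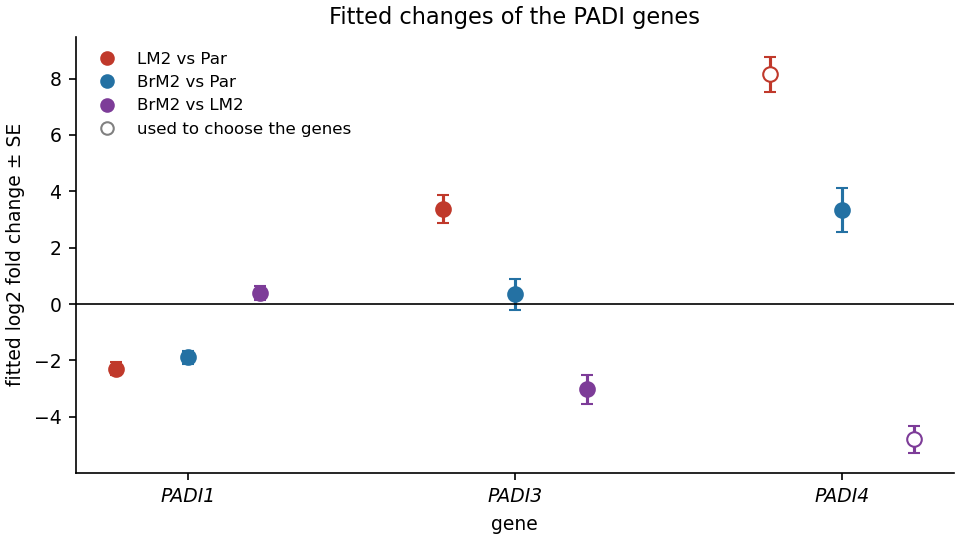
Fitted log2 fold change ± SE from edgeR for PADI1, PADI3 and PADI4 in the 3 comparisons. Open symbols are values of PADI4 that use the LM2 libraries, by whose rise over Par the genes were chosen. The filled PADI4 symbol, BrM2 against Par, uses the Par libraries of that same choice. PADI1 lies at -2.29 and -1.89 against Par, PADI3 at 3.37 and 0.34, and PADI4 at 8.15 in LM2, a fitted value set against a near-zero level and so no measure of size.

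In LM2 and BrM2, replicate 1 held the highest CPM of each of the 4 PADI genes. Replicate 1 also had the lowest TMM factor of each population, 0.938 in Par, 0.845 in LM2 and 0.945 in BrM2 against 1.03 to 1.07 in the other libraries, and its part in the levels was not tested. Without the replicate 1 libraries the log2 difference of PADI3 between LM2 and Par was 3.02 (edgeR adjusted p = 0.00115), that of PADI4 between BrM2 and Par was 3.27 (0.0259) and that of PADI1 was -2.48 in LM2 (0.00025) and -2.07 in BrM2 (0.000354).

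Because the genes differ in length, levels of different genes within a population were compared as CPM per kb of exon. In Par cells PADI1 stood at 1.72 ± 0.23 CPM per kb and PADI3 at 0.115 ± 0.019 (SD, n = 3), with PADI4 and PADI2 at the floor. In LM2 cells the order was PADI4 at 3.52 ± 0.93, PADI3 at 1.22 ± 0.38, PADI1 at 0.350 ± 0.061 and PADI2 at 0.055 ± 0.046 CPM per kb. In BrM2 cells PADI1 led again at 0.464 ± 0.058, and PADI3 at 0.156 ± 0.113 and PADI4 at 0.132 ± 0.081 did not differ beyond their spread. The sum of the 4 genes was 1.84 ± 0.24 CPM per kb in Par, 5.14 ± 1.34 in LM2 and 0.767 ± 0.254 in BrM2.

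The make-up of the family does not depend on how libraries were scaled and is given as a description, since the level of PADI4 chose the genes. PADI1 supplied between 92.6% and 93.8% of the per-length level in the Par libraries, between 5.94% and 8.07% in the LM2 libraries and between 50.05% and 73.2% in the BrM2 libraries. PADI4 supplied 65.1% to 72.2% in LM2 and 13.1% to 21.2% in BrM2. As shares of raw PADI counts, PADI1 held 137 of 144 reads in Par replicate 1 (95.1%, exact 95% interval 90.2% to 98.02%), 39 of 427 in LM2 replicate 1 (9.13%, 6.58% to 12.3%) and 35 of 58 in BrM2 replicate 1 (60.3%, 46.6% to 73.0%).

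**Figure D3:**
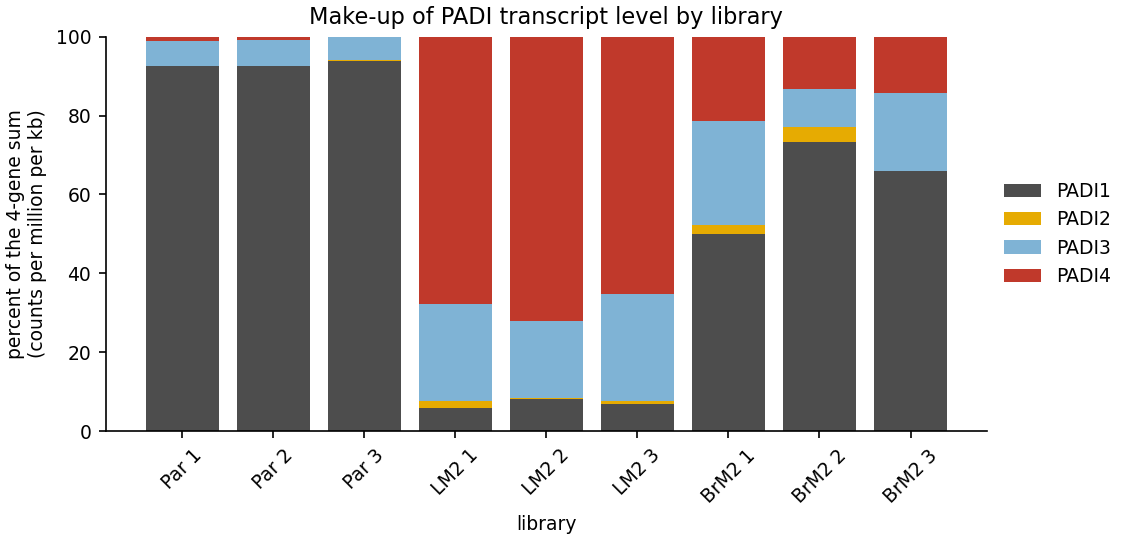
Share of each PADI gene in the summed CPM per kb of the 4 genes, 1 stacked bar for each library. PADI1 fills over 92% of the Par bars, PADI4 between 65.1% and 72.2% of the LM2 bars, and PADI1 again the largest part of the BrM2 bars.

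The differences were next set beside the genes around the cluster, to see whether the whole neighbourhood moved. Of 48 RefSeq genes within 500 kb of the span from PADI2 to PADI6, 8 besides the PADI genes passed the filter. ARHGEF10L, a guanine nucleotide exchange factor encoded beyond PADI6 and RCC2, fell in both sub-populations. Its levels were 9.98, 8.13 and 8.29 CPM in Par, 4.57, 2.33 and 2.11 in LM2 and 2.36, 2.08 and 2.49 in BrM2. The log2 difference was -1.56 ± 0.32 in LM2 (SE, edgeR adjusted p = 0.0159) and -1.93 ± 0.32 in BrM2 (SE, edgeR adjusted p = 0.00467). The other 7 genes, NBPF1, CROCCP2, CROCC, MFAP2, ATP13A2, SDHB and RCC2, did not pass the test in any comparison. Over all tested genes 8.65% passed in LM2 and 13.2% in BrM2, and 1 of 8 neighbours is not read as particular to this region.

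RCC2, a chromosome condensation protein encoded next to PADI6, differed from Par by -0.02 ± 0.26 in LM2 and 0.50 ± 0.26 in BrM2 on the log2 scale, and SDHB, a subunit of succinate dehydrogenase encoded beyond PADI2, by 0.19 ± 0.24 and 0.59 ± 0.24 (SE). The median log2 difference of the 8 neighbours was -0.11 in LM2 and 0.43 in BrM2, against 0.01 and -0.02 for all tested genes. Same-numbered libraries of different populations deviated together. With the replicate as a block 4 of the 8 neighbours passed in LM2, 3 of them lower, and 5 in BrM2, 4 of them higher. In that fit 34.5% of all tested genes passed in LM2 against Par, 42.7% in BrM2 against Par and 37.5% in BrM2 against LM2.

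**Figure D4:**
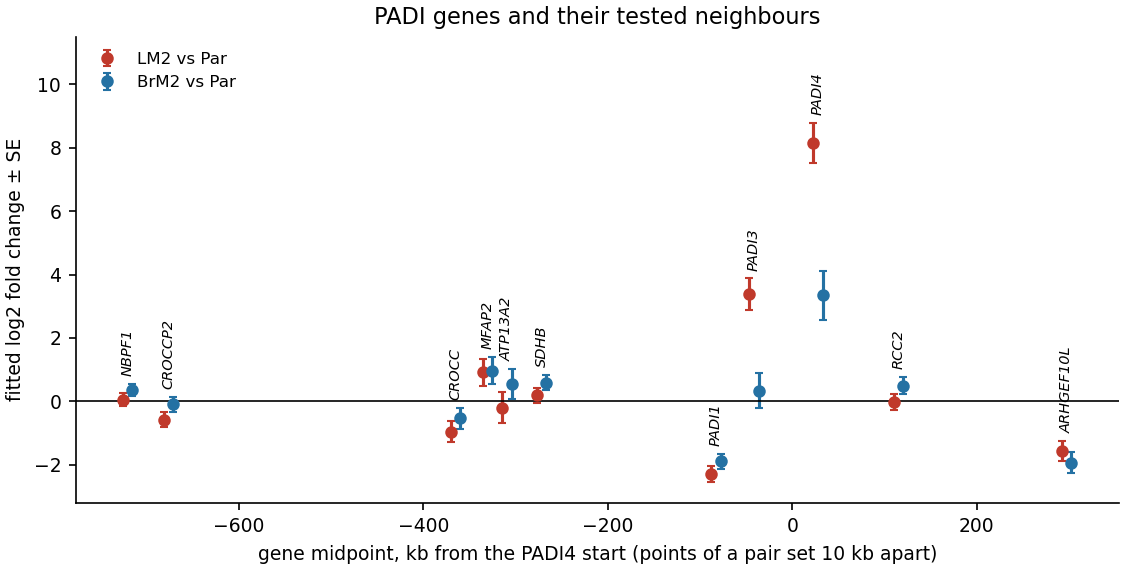
Fitted log2 fold change ± SE against Par for PADI1, PADI3, PADI4 and the 8 neighbouring genes that passed the filter, plotted by the distance of each gene's midpoint from the PADI4 start in kb. PADI3 and PADI4 lie above 0 in LM2 between PADI1 on one side and RCC2 on the other, PADI1 and ARHGEF10L lie below 0 in both sub-populations, and the PADI4 value in LM2 is the one that chose the genes.

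Proteins known to be citrullinated were listed to see how the substrates stood where the enzymes differed. Of 27 such genes 20 were tested. In LM2 1 rose and 2 fell, in BrM2 2 rose and 3 fell, and between BrM2 and LM2 1 differed (with the replicate block 9, 10 and 9 passed). Over all tested genes the shares were 8.65%, 13.2% and 8.08%, and 34.5%, 42.7% and 37.5% with the block, and the counts are not read as particular to this list. Their median log2 differences were 0.09, -0.13 and -0.02, against 0.01, -0.02 and -0.03 for all tested genes. VIM, the intermediate filament vimentin, rose from 725 ± 137 CPM in Par to 1537 ± 293 in LM2 and 1502 ± 291 in BrM2 (SD, n = 3), a log2 difference of 1.08 (edgeR adjusted p = 0.0196) and 1.05 (0.0163). MBP, the myelin protein, fell by 0.71 in LM2 (edgeR adjusted p = 0.0166). DNMT3A, a DNA methyltransferase reported to be a PADI4 substrate, rose by 0.96 in BrM2 against Par (edgeR adjusted p = 0.0155). FN1, fibronectin, stood at 886 ± 140 CPM in Par, 1131 ± 19.4 in LM2 and 290 ± 16.7 in BrM2, and fell by 1.61 in BrM2 against Par (edgeR adjusted p = 0.000411).

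Of the epidermal substrates, FLG passed the test in both sub-populations and S100A3 in BrM2. FLG, the filaggrin gene, was 103 ± 33.6 CPM in Par, 44.1 ± 12.1 in LM2 and 36.2 ± 5.69 in BrM2 (SD, n = 3). It fell by 1.23 on the log2 scale in LM2 (edgeR adjusted p = 0.039) and dropped by 1.51 in BrM2 (0.0117). S100A3, a calcium-binding protein of the hair cuticle, was 39.7 ± 6.85 CPM in Par and fell by 1.89 in BrM2 (edgeR adjusted p = 0.0345), while its LM2 difference of -1.46 ± 0.48 (SE) did not pass (0.111). With the replicate block the S100A3 difference in LM2 was -1.64 and passed (edgeR adjusted p = 0.000412). HRNR, hornerin, rose by 1.35 in BrM2 (edgeR adjusted p = 0.042). FLG overlaps the antisense gene FLG-AS1 and VIM overlaps VIM-AS1, and the strand that was counted is not given in the sources used here, so part of either value may belong to the antisense gene.

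Most genes of keratinocyte differentiation were not detected. Of 17 keratinocyte differentiation genes, 9 had no read in any library, among them IVL, LOR, KRT1 and TGM3, and 5 were tested. Of these 1 fell in LM2, 2 fell and 1 rose in BrM2 and none passed between BrM2 and LM2 (1 at an unadjusted p under 0.05, 1 in DESeq2). With the replicate block 2, 3 and 1 of the 5 passed. Over all tested genes the shares were 8.65%, 13.2% and 8.08%, and 34.5%, 42.7% and 37.5% with the block. The summed level of the list ran from 150 to 197 CPM in Par, from 80.8 to 86.2 in LM2 and from 68.3 to 75.0 in BrM2, and FLG and S100A3 supplied most of it in Par.

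PADI4 is best known from neutrophils, and their markers were close to absent. Of 15 neutrophil markers, 9 had no read in any library, including ELANE, MPO, CTSG, CSF3R and S100A8, and 13 had at most 3 reads in every library. The summed counts of the list were 27 to 33 in the Par libraries, 9 to 17 in the LM2 libraries and 6 to 11 in the BrM2 libraries, of which LTF, lactoferrin, gave 20 to 29, 3 to 16 and 4 to 6. None of the 15 passed the filter, so none was tested.

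Genes of arginine methylation, and enzymes that act on free arginine and citrulline, were listed beside the PADI genes. None of the 10 tested genes of arginine methylation passed edgeR's test in any comparison (1 in each at an unadjusted p under 0.05, and 0, 1 and 1 in DESeq2 for LM2 against Par, BrM2 against Par and BrM2 against LM2). With the replicate block 1, 5 and 5 of the 10 passed, where 34.5%, 42.7% and 37.5% of all tested genes passed. The 1 in LM2 was lower, and the 5 in each BrM2 comparison were higher. Median log2 differences of the 10 were 0.12, 0.38 and 0.38, against 0.01, -0.02 and -0.03 for all tested genes. Of the 13 genes for free arginine and citrulline, 6 were tested and ARG2, the mitochondrial arginase, rose in BrM2 from 6.36 ± 0.58 CPM in Par to 21.9 ± 3.35 (SD, n = 3), a log2 difference of 1.78 ± 0.21 (SE, edgeR adjusted p = 0.000834). Its exons overlap those of VTI1B on the other strand. In LM2 none of the 6 passed (4 at an unadjusted p under 0.05, 2 in DESeq2, 5 with the replicate block). In BrM2 against Par 1 passed (2 with the block), and 1 passed between BrM2 and LM2 (4 with the replicate block). Shares of all tested genes that passed were 8.65%, 13.2% and 8.08% in these comparisons, and 34.5%, 42.7% and 37.5% with the block. The counts of both lists are few and are not read as particular to them.

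Of 13 factors known at PADI promoters, 11 were tested, and 1 passed in LM2, 1 in BrM2 and 2 between BrM2 and LM2 (with the replicate block 3, 4 and 5). Over all tested genes 8.65%, 13.2% and 8.08% passed, and 34.5%, 42.7% and 37.5% with the block. The counts are few and are not read as particular to this list. MZF1, a zinc finger factor known at the PADI1 promoter, was 12.8 ± 1.11 CPM in Par, 20.9 ± 1.20 in LM2 and 9.28 ± 0.996 in BrM2 (SD, n = 3). It rose by 0.71 in LM2 (edgeR adjusted p = 0.0483), and its exons overlap the antisense gene MZF1-AS1. PADI1 fell in LM2 and also in BrM2, where the MZF1 difference from Par was -0.46 ± 0.19 (SE, edgeR adjusted p = 0.157). With the replicate block that MZF1 difference was -0.47 (edgeR adjusted p = 0.0296). A relation of MZF1 to PADI1 was not tested. SOX4, an HMG-box transcription factor, was 25.04 ± 8.97 CPM in Par, 17.1 ± 5.19 in LM2 and 6.84 ± 1.15 in BrM2, and fell by 1.87 in BrM2 against Par (edgeR adjusted p = 0.00743). JUN and FOS, whose AP-1 site letters occur before PADI4, were in the list and passed in no comparison with or without the block.

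The genes whose pattern over the 9 libraries was most like that of each PADI gene were named by the correlation of log2 CPM. The libraries fall into 3 populations, so these coefficients mostly reflect differences between populations and are a description. For PADI4 they were SPARC (Pearson r = 0.99), NGRN (0.99), LINC00565 (0.99), PPP2R2C (0.99) and SH2B3 (0.99). SPARC, a secreted matricellular glycoprotein, stood at 2.13 ± 0.17 CPM in Par, 480 ± 152 in LM2 and 19.5 ± 10.8 in BrM2 (SD, n = 3), so it had the same order of populations as PADI4 at a far higher level. For PADI3 they were HCN2, ACP7, COL1A1, STAC and SHROOM2 (r from 0.97 to 0.99), and COL1A1, a chain of type I collagen, stood at 6.84 ± 1.74, 43.5 ± 9.87 and 7.68 ± 3.35 CPM in Par, LM2 and BrM2.

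For PADI1 they were JCAD, SIPA1L1, LGALS12, PHKA2 and CTSZ (r from 0.98 to 0.99). JCAD, a junctional protein, stood at 25.1 ± 0.59 CPM in Par, 1.85 ± 0.28 in LM2 and 3.48 ± 0.16 in BrM2. LGALS12, a galectin, stood at 37.7 ± 12.8 CPM in Par and at 0.017 ± 0.029 and 0.105 ± 0.101 in LM2 and BrM2. By Spearman's rho, 0 of the 5 genes named for PADI1, 3 of the 5 for PADI3 and 2 of the 5 for PADI4 reached the rho of the gene ranked 5th, ties included, so the names depend on the measure. Counting all tested genes, 52 had r over 0.95 with PADI1, 24 with PADI3 and 44 with PADI4.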

How the data were processed

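Paired-end stranded mRNA libraries of Par, LM2 and BrM2 cells were made by the authors, and gene-level read numbers on hg38 came from STAR (2.7.0 in the submitters' processing notes). The deposited counts are raw, without normalization. The authors' second table holds their DESeq2 fold changes and adjusted p-values and was not used. Identical rows listed under a second symbol (3 of 58887) were kept once. A filter written after HTSFilter (100 thresholds from 1 to 200, loess span 0.3) kept the 13001 genes whose largest normalized count was above 49.2. edgeR 4.0.16 was used with TMM factors, all 9 libraries, the population as the only term and 2-sided quasi-likelihood tests. The code was run on data simulated without a shared replicate effect, which cannot show how the test behaves where libraries deviate together. Log2 CPM for likeness used a prior count of 2. A population with at most 3 counts in each library was taken as at the floor, and ratios were given exact 95% intervals (scipy 1.17.1). Exon lengths and overlaps came from a GENCODE annotation of another build, with no coordinate taken from it, and positions, start sites and promoter sequences from RefSeq on GRCh38.p14, with promoter sequences matched for 3 of the 4 genes (PADI1, PADI2 and PADI4). R 4.3.3, DESeq2 1.42.0, Python 3.11.15, pandas 2.3.3, numpy 2.4.6 and matplotlib 3.10.9 were also used.

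Same-numbered libraries of different populations deviated together (r from 0.23 to 0.90 in all 9 pairs), and the replicate numbers were taken as a possible pairing. Differently numbered pairs were not compared, and replicate 1 had the lowest TMM factor in each population. The check therefore cannot show that the numbers pair the other libraries. The study's methods name no block, so it was fitted as an alternative, beside DESeq2, RLE factors, filterByExpr, no filter, only the 2 populations compared, and leaving out each library or replicate number. The SE and p-values given without mention of the block, and those in the figures, leave this pairing out. Named were all PADI genes, tested neighbours within 500 kb, the 5 most alike genes of each PADI gene, and per list the genes past the threshold (the 2 largest rises and falls with a mean of at least 50 counts where over 4 passed). The genes and lists were chosen with earlier results of these data known. JUN, FOS and the arginine methylation genes were named outside this rule, after their values were seen. The lists followed textbook knowledge. A further gene list is not reported here.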

Additional observations from a re-analysis of the deposited data

Results flagged for a closer look

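The change of PADI3 from Par differed between the metastatic sub-populations, with BrM2 minus LM2 at -3.03 on the log2 scale (edgeR adjusted p = 0.00638). PADI3 entered the test only through its LM2 level, and with no filter on low counts the value was -3.05 (edgeR adjusted p = 3.37e-05). The same difference was past the threshold for 4 of the 54 listed genes tested (7.41%), where 8.08% of all tested genes passed. It was 1.13 for ARG2 (edgeR adjusted p = 0.0111), -1.96 for FN1 (0.000269), -1.17 for MZF1 (0.00529) and -1.32 for SOX4 (0.0478). Groups of 3 libraries were not tested for single outlying libraries.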

How the results depend on the processing

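The direction of PADI1 against Par, of PADI3 in LM2 and of PADI4 in BrM2 held under every alternative run, and the replicate block changed no PADI call. With the block and the same filter, PADI1 differed from Par by -2.30 ± 0.22 in LM2 (SE, edgeR adjusted p = 2e-05) and -1.90 ± 0.21 in BrM2 (5.36e-05). PADI3 differed by 3.33 ± 0.36 between LM2 and Par (5.45e-05) and by -3.06 ± 0.36 between BrM2 and LM2 (0.000111). PADI4 differed by 3.32 ± 0.69 between BrM2 and Par (0.00296), a comparison that shares the Par libraries used in choosing the genes. The log2 difference of PADI3 between BrM2 and Par reversed to -0.29 without BrM2 replicate 1 and to -0.36 without replicate 1. Leaving out 1 library or 1 replicate number gave log2 differences of -2.48 to -2.09 for PADI1 in LM2 and -2.07 to -1.71 in BrM2, 3.02 to 3.70 for PADI3 in LM2, -0.36 to 0.95 in BrM2 and -3.66 to -2.61 between BrM2 and LM2, and 2.73 to 4.03 for PADI4 in BrM2. The calls of PADI1, PADI3 and PADI4 that were lost are given beside each gene, and each of them was lost when the replicate 2 or the replicate 3 libraries were left out of all 3 populations. With only the 2 populations compared the PADI4 difference between BrM2 and Par was 3.33 and no longer past the threshold.

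The 1125 genes past the threshold in LM2 against Par, 1721 in BrM2 against Par and 1051 in BrM2 against LM2 became 4487, 5551 and 4880 with the replicate block. DESeq2 gave 1885 in LM2 against Par and 1812 in BrM2 against LM2, and only the 2 populations compared gave 595 in the latter. Leaving out a library or replicate number gave 70 to 4301, 158 to 5249 and 53 to 4240. Without the replicate 1 libraries the counts were 4301, 5249 and 4240. The cause of these shifts was not tested. PADI2, and PADI4 in Par and BrM2, gave few reads at this depth.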
